A study of Homo sapiens with 6 samples.

Results

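Of 58735 genes in the table, 10 were taken by name: the EGF-family ligands HBEGF, AREG, EREG, TGFA and NRG1, the receptor tyrosine kinases EGFR, ERBB2 and EPHA2, and the feedback inhibitors ERRFI1 and LRIG1. Their levels were read in 6 poly-A RNA-seq libraries of A375, an established human malignant melanoma cell line labelled as skin. The 3 libraries labelled PAL came from cells given Ringer's lactate activated by a low-temperature plasma, an ionised gas, and the 3 labelled control from cells without it. The labels state no dose, exposure time or control medium and do not say whether replicates were separate cultures. P-values therefore cover only library-to-library spread, possibly technical. A 64 stands in the header of each PAL column and is not explained.

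Ligands of this family are made as membrane-anchored precursors that metalloproteases cut at the cell surface. The freed ligand carries an EGF-like module that pairs receptors of the ERBB family, which then signal through RAS and ERK. The genes for several ligands and for ERRFI1 are themselves induced by that signal, so the family holds both a feed-forward and a feedback arm. EPHA2 is not an ERBB receptor but an ephrin receptor whose gene is a known ERK target.

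Among the labelled cell type's markers, the neural crest factor SOX10 was at 86.4 to 108 FPKM over the 6 libraries and MITF, the melanocyte master regulator, at 2.12 to 2.40 FPKM. The other 5 of 7 melanocyte markers were below the filter: PMEL reached 0.415 FPKM at most and TYR was listed at 0 in all libraries, so the pigment genes that define the lineage were near absent. Marker sums for keratinocytes were 31.5 to 36.4 FPKM in control and 30.8 to 33.4 in PAL, most of it KRT10 (27.6 to 32.0 over the 6 libraries). KRT14 was at 3.40 to 4.25 FPKM in control and 2.57 to 3.21 in PAL, KRT5 at 0.157 at most and KRT1 at 0. Fibroblast markers summed to 4.14 to 4.69 in control and 3.06 to 4.47 in PAL, mostly LUM, and immune and endothelial markers to at most 0.287 and 0.152. SOX10 was higher in PAL (88.1 ± 1.68 and 108 ± 0.944 FPKM, limma adjusted p = 3.88e-04) and KRT14 lower (adjusted p = 0.0422), and their part in the results was not tested. Libraries held 15064971 to 17711389 reads assigned to genes. In a bulk sample, fewer cells with a transcript and less transcript per cell cannot be told apart.

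Promoters of 4 members are shown because 3 of these genes fell in PAL (HBEGF, ERRFI1 and AREG) and the other, EPHA2, did not pass. Each run is the 250 bases before the RefSeq start (GRCh38.p14), 5′ to 3′ on the gene's strand, with matches to the searched motifs in capitals.
HBEGF, chr5:140346604-140346853, minus strand: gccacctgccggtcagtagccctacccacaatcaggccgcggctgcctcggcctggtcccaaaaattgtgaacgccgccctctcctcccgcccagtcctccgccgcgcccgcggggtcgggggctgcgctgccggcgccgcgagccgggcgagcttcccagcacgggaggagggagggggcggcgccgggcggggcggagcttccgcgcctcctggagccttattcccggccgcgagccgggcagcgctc
ERRFI1, chr1:8026310-8026559, minus strand: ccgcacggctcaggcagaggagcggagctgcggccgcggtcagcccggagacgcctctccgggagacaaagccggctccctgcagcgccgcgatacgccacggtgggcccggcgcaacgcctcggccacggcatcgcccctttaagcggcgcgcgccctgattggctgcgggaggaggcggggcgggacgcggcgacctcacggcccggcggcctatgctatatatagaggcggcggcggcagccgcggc
AREG, chr4:74444886-74445135, plus strand: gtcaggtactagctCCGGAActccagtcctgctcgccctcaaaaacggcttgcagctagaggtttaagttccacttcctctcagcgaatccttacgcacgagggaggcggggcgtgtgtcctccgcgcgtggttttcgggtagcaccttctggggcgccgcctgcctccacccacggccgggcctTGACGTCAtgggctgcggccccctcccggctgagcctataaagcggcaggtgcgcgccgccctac
EPHA2, chr1:16156070-16156319, minus strand: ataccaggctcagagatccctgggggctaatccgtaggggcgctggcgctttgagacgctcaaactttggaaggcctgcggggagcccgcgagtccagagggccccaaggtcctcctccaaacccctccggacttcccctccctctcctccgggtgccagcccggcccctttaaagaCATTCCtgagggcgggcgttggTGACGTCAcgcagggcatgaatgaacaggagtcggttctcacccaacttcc

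The motifs searched on both strands were AP-1 (TGANTCA), the cAMP response element or CRE (TGACGTCA), the serum response CArG box, ETS (CCGGAA), the heat shock element and TEAD (GGAATG). None of the 6 was found in the windows of HBEGF and ERRFI1. AREG held a CRE at 65 to 58 bases before the start and an ETS match at 236 to 231. EPHA2 held the same CRE letters at 51 to 44 bases and a TEAD match at 73 to 68. The CRE letters occur in 1.65% of 35116 RefSeq windows of this length, AP-1 in 6.57%, ETS in 14.5%, TEAD in 11.9%, the CArG box in 1.16% and the heat shock element in 0.441%. So AREG, which fell, and EPHA2, which did not pass, share the rarest letters found here. RefSeq windows were found for 9 of the 10 genes, 14 in all. NRG1 had no entry.

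PAL was compared with control to ask which transcripts of the family differ with the treatment. HBEGF fell most, to 4.21 FPKM from 18.1, and was joined by AREG, at a far lower level, and by ERRFI1. The most abundant ligand, TGFA, and the receptors EGFR, ERBB2 and EPHA2 did not pass the test. Of the 8 members tested, 3 were lower and 0 higher in PAL by limma (adjusted p below 0.05), and voom, a model for the recovered reads, gave the same numbers. Over all 12258 genes tested, 25.9% were called, 14.5% lower and 11.4% higher. The median log2 difference was -0.06 over the tested members and 0.0043 over all tested genes. EREG and NRG1 did not reach 1 FPKM in 3 libraries and were not tested.

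**Figure D1:**
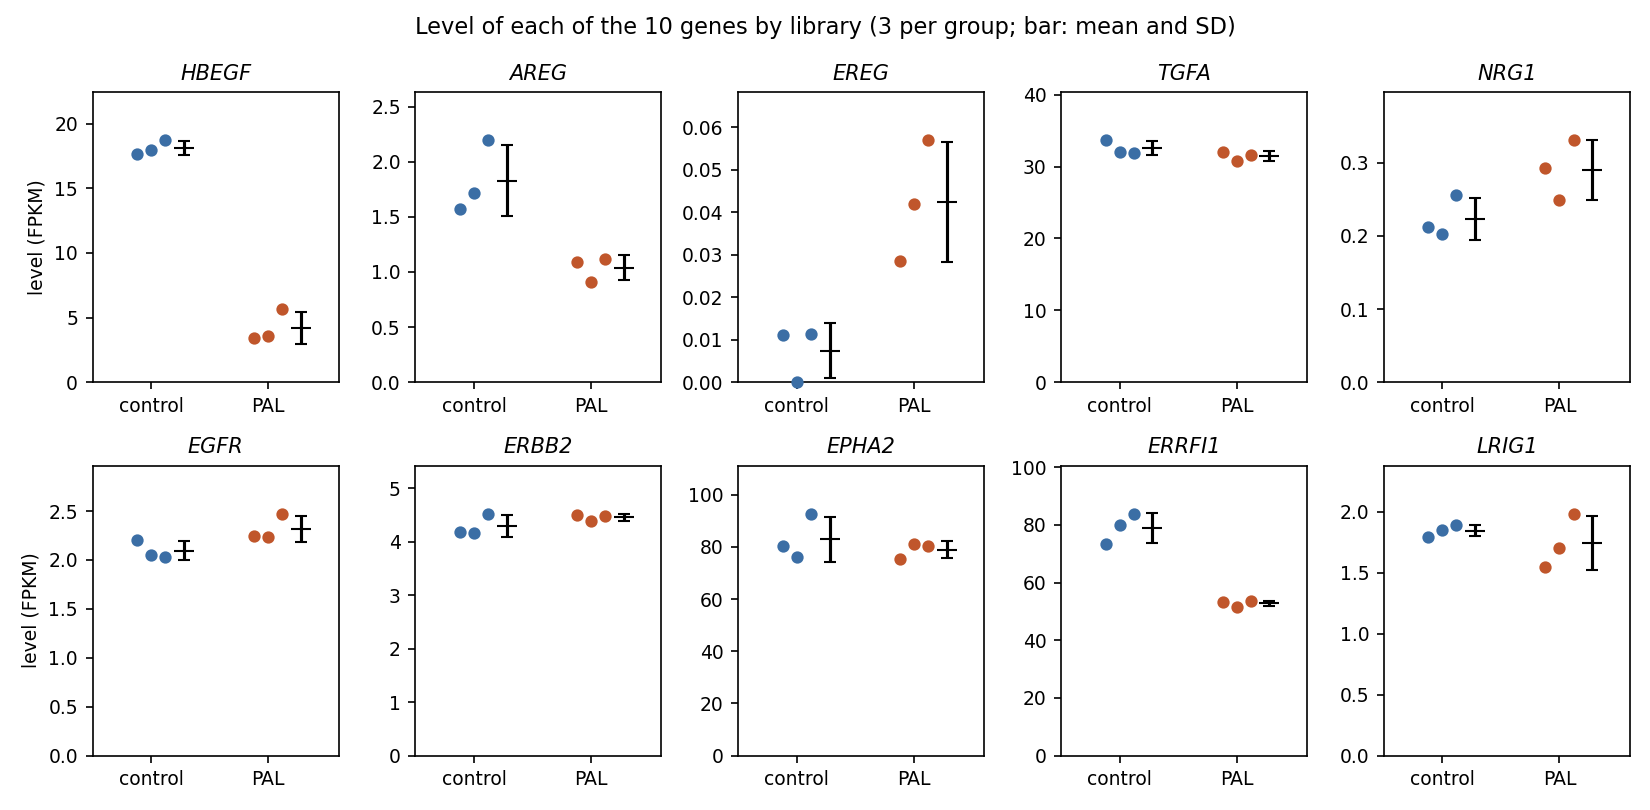
Level in FPKM (vertical axis, from 0) of each of the 10 genes in the 3 control (blue) and 3 PAL (orange) libraries, with the mean and SD in black. HBEGF and ERRFI1 show control libraries well above all PAL libraries (HBEGF 17.6 to 18.7 against 3.42 to 5.65), while TGFA and EPHA2 overlap.

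HBEGF (chromosome 5, 140332843 to 140346631, minus strand, protein coding, 3 annotated transcripts) encodes heparin-binding EGF-like growth factor, a ligand of EGFR and ERBB4. It stood at 17.6, 18.0 and 18.7 FPKM in the control libraries (replicates 1, 2 and 3) and at 3.42, 3.55 and 5.65 FPKM in PAL replicates 1, 2 and 3. The groups were far apart, and PAL replicate 3 was the highest of its group. Means were 18.1 ± 0.545 and 4.21 ± 1.25 FPKM (SD, n = 3 each), a 4.31-fold lower mean in PAL. On the log2(FPKM + 1) scale, which understates changes of low genes, HBEGF fell by 1.90 ± 0.15 (SE), with a limma adjusted p of 2.68e-04, lower in 3 of 3 PAL libraries than in any control. That was the 46th largest fall among 12258 genes.

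The depth behind HBEGF was 805 to 875 reads per control library and 179 to 314 per PAL library. With voom on those reads the log2 difference was -2.14 (95% interval -2.39 to -1.88). The mean ratio was 3.94 without PAL replicate 1 and 5.20 without PAL replicate 3. The stress-inducible HSP70 gene HSPA6 was at 1999, 1960 and 1685 FPKM in control replicates 1 to 3, the reverse of the HBEGF order there. Its PAL values of 20.7, 27.4 and 73.2 FPKM (replicates 1 to 3) had the same order as those of HBEGF. FOS, an immediate early gene, had PAL values of 9.60, 10.5 and 23.9 FPKM in the same order. In control replicates 1, 2 and 3 it stood at 94.9, 75.9 and 32.8, again the reverse of the HBEGF order. Their part in the HBEGF result was not tested. Since HSPA6 was that high in all 3 control libraries, stress of the control cells, an exchange of the group labels and an action of PAL cannot be told apart in these data. Every fall or rise given here is a difference between the libraries labelled PAL and those labelled control.

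TGFA (chromosome 2, 70447280 to 70554193, minus strand, 9 transcripts) encodes transforming growth factor alpha, a ligand of EGFR. It was at 33.6, 32.1 and 31.9 FPKM in control replicates 1 to 3 and at 32.0, 30.7 and 31.6 in PAL replicates 1 to 3. The ranges overlapped. The log2 difference was -0.05 (95% interval -0.12 to 0.03, limma adjusted p = 0.314). Its direction turned with scaling to TPM or to plain read totals. TGFA rested on 2359 to 2924 reads per library, the most of the ligands.

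AREG encodes amphiregulin, an EGFR ligand with a heparin-binding stretch (chromosome 4, 74445134 to 74455009, plus strand, 3 transcripts). Its levels were 1.57, 1.72 and 2.19 FPKM in the control libraries (replicates 1 to 3) and 1.09, 0.909 and 1.12 FPKM in PAL replicates 1 to 3. All PAL libraries lay below all controls, on only 41 to 56 reads per control library and 25 to 34 per PAL library. The mean was 1.76-fold lower in PAL, a fall by 0.47 ± 0.10 (SE) on the log2(FPKM + 1) scale with a limma adjusted p of 0.0161. With voom the difference was -0.79 (95% interval -1.29 to -0.29). The call was lost with no filter on low genes (adjusted p = 0.0594), without PAL replicate 2 (0.0579) and without both libraries numbered 3 (0.0530), and the adjusted p ranged from 0.00330 to 0.0594 over 17 settings.

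EREG encodes epiregulin, a ligand of EGFR and ERBB4, and lies 56382 bases before AREG on the same strand (chromosome 4, 74365143 to 74388751). It was close to silent: 1, 0 and 1 reads in control replicates 1 to 3 and 3, 4 and 6 in PAL replicates 1 to 3, or at most 0.0570 FPKM. The read rate was 5.60 times as high in PAL, with a 95% exact interval of 1.27 to 51.1 that covers counting error only. The groups did not overlap, and the exact permutation test gave a two-sided p of 0.1, the smallest that 3 against 3 allows. So the 2 neighbouring ligand genes had differences of opposite sign, at levels of a few reads for EREG.

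NRG1 encodes neuregulin 1, a ligand of ERBB3 and ERBB4 (chromosome 8, 31639386 to 32767959, plus strand, 22 transcripts). It was at 0.212, 0.203 and 0.256 FPKM in control replicates 1 to 3 and at 0.293, 0.249 and 0.331 in PAL replicates 1 to 3, from 34 to 69 reads per library. PAL replicate 2 lay below control replicate 3, so the groups overlapped (exact permutation p = 0.2, two-sided).

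In sum the 5 ligands came to 53.1, 52.0 and 53.1 FPKM in the control libraries (replicates 1 to 3) and 36.9, 35.5 and 38.8 FPKM in PAL replicates 1 to 3. HBEGF made up 34.4% ± 1.03 of that sum in control and 11.3% ± 2.86 in PAL (SD, n = 3 each). TGFA made up 61.7% ± 1.63 in control and 85.0% ± 3.00 in PAL, while its own level did not pass the test. The HBEGF to TGFA ratio within a library, which does not depend on the library's scaling, was 0.525 to 0.586 in control and 0.107 to 0.179 in PAL. In all, 10 measures were computed per library: 8 shares or ratios, and 2 sums that do depend on scaling. On the deposited scale each separated the groups at an exact two-sided permutation p of 0.1 (0.1 after Benjamini-Hochberg adjustment), the smallest this design allows. These are not separate results: the 5 shares add up to the whole, so a lower HBEGF share raises the sum of the others. Not every other share rose: that of AREG was 3.47% ± 0.601 in control and 2.80% ± 0.209 in PAL. The levels of TGFA and NRG1 themselves overlapped between the groups. With plain read totals, a scaling applied to the sums after seeing the data, the ligand sum was 51.1 to 52.3 in control and 36.9 to 40.3 in PAL.

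**Figure D2:**
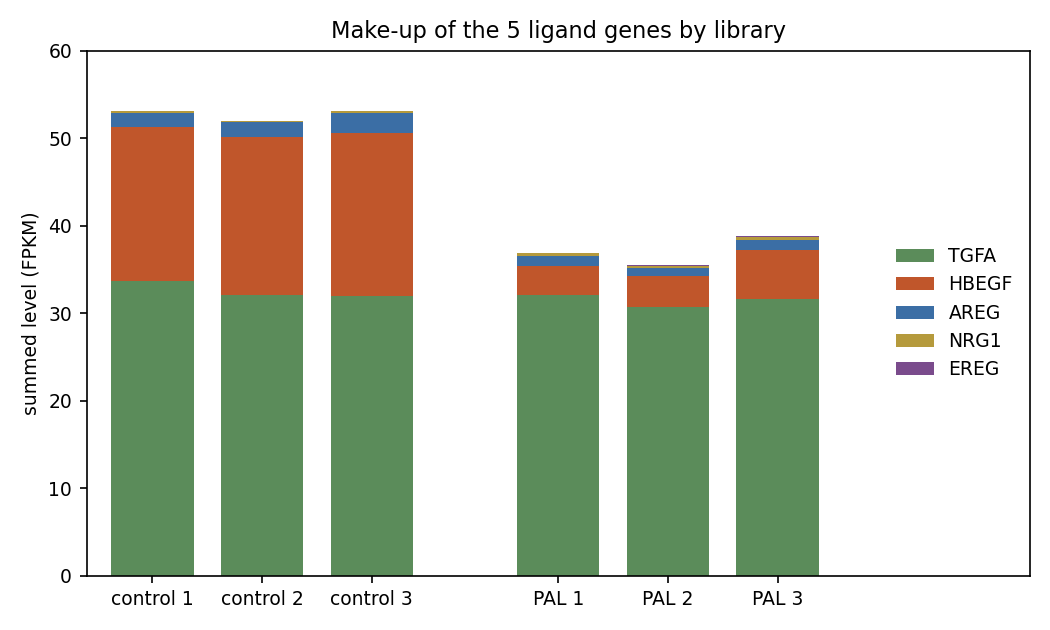
Summed level of the 5 ligand genes in FPKM (vertical axis) in each of the 6 libraries, stacked by gene. The TGFA part is near 32 FPKM throughout (30.7 to 33.6), and the lower PAL bars come mostly from the HBEGF part (3.42 to 5.65 against 17.6 to 18.7).

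Of the 3 receptors tested, 0 were called by limma, 0 passed at an unadjusted p below 0.05 and 0 were called by voom. EGFR (chromosome 7, 55019021 to 55211628, plus strand, 11 transcripts), the receptor of HBEGF, AREG and TGFA, was at 2.21, 2.05 and 2.03 FPKM in control replicates 1 to 3 and at 2.24, 2.24 and 2.47 in PAL replicates 1 to 3. Every PAL library was above every control. Groups did not overlap for 4 of the 8 tested members, 3 lower and 1 higher. Over all tested genes the share was 44.9%, with 23.6% lower and 21.4% higher in PAL. The log2 difference of EGFR was 0.10 (95% interval -0.04 to 0.24, limma adjusted p = 0.264), on 380 to 570 reads per library.

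ERBB2 encodes the ERBB receptor with no ligand of its own, which pairs with the others (chromosome 17, 39687914 to 39730426, plus strand, 22 transcripts). It was at 4.19, 4.17 and 4.52 FPKM in control replicates 1 to 3 and at 4.50, 4.38 and 4.49 in PAL replicates 1 to 3. The ranges overlapped, and the log2 difference was 0.04 (95% interval -0.07 to 0.16, adjusted p = 0.529). Its ends overlap MIEN1, at 15.2 FPKM in control, and PGAP3 on the other strand, and since the use of strand in counting is not given, reads there cannot be told apart.

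EPHA2 (chromosome 1, 16124337 to 16156087, minus strand, 4 transcripts) was the most abundant of the 10, at 80.1, 75.9 and 92.6 FPKM in control replicates 1 to 3 and 75.3, 81.0 and 80.5 in PAL replicates 1 to 3. Control replicate 3 was the highest and the groups overlapped. The log2 difference was -0.07 (95% interval -0.24 to 0.10, adjusted p = 0.539) and turned without that library, to 0.016. It also turned with all 3 other scalings. EPHA2 rested on 4679 to 6164 reads per library. An antisense gene overlaps its start and did not exceed 1.32 FPKM.

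ERRFI1 (chromosome 1, 8004404 to 8026308, minus strand, 5 transcripts) encodes MIG6, which binds the kinase domain of active EGFR and ERBB2 and blocks it. It stood at 73.3, 79.8 and 83.8 FPKM in control replicates 1 to 3 and at 53.2, 51.7 and 53.5 in PAL replicates 1 to 3. Every PAL library lay below every control, and the PAL libraries were close to each other. The mean was 1.50-fold lower, a fall by 0.57 ± 0.05 (SE) on the log2 scale (limma adjusted p = 4.14e-04), on 3611 to 5435 reads per library. An antisense gene that overlaps 909 bases at its end reached at most 0.335 FPKM. Relative to EPHA2 in the same library, ERRFI1 was at 0.957 ± 0.0814 in control and 0.670 ± 0.0345 in PAL (SD, n = 3 each).

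LRIG1 (chromosome 3, 66378797 to 66501263, minus strand, 9 transcripts) encodes a membrane protein that promotes degradation of ERBB receptors. It was at 1.80, 1.85 and 1.89 FPKM in control replicates 1 to 3 and at 1.55, 1.70 and 1.98 in PAL replicates 1 to 3. The PAL libraries spread on both sides of the controls. The log2 difference was -0.06 (95% interval -0.24 to 0.12, adjusted p = 0.628), on 193 to 257 reads per library. Thus ERRFI1 passed and LRIG1 did not. The difference between these 2 changes was not tested. Its end overlaps SLC25A26 on the other strand, at 3.44 FPKM in control.

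**Figure D3:**
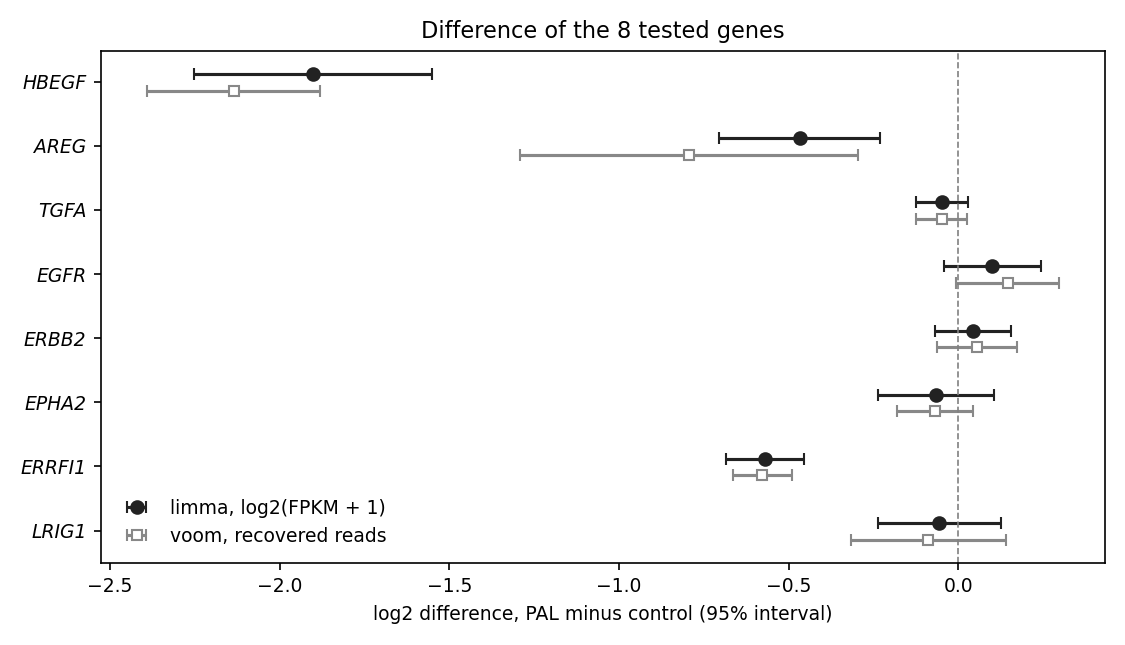
Log2 difference, PAL minus control, of the 8 tested genes (horizontal axis) with 95% intervals, from limma on log2(FPKM + 1) (black) and voom on recovered reads (grey). The intervals of HBEGF, AREG and ERRFI1 lie below 0 with both (HBEGF -2.25 to -1.55 and -2.39 to -1.88), and those of the other 5 include 0.

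By length-scaled level (FPKM), the order in control was EPHA2, ERRFI1, TGFA, HBEGF, ERBB2, EGFR, LRIG1, AREG, NRG1 and EREG. Neighbours whose ranges overlapped were EPHA2 with ERRFI1 and LRIG1 with AREG. In PAL the order was the same except that ERBB2 (4.46 ± 0.0656 FPKM) came before HBEGF (4.21 ± 1.25). These 2 overlapped, while EPHA2 with ERRFI1 and LRIG1 with AREG no longer did.

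**Figure D4:**
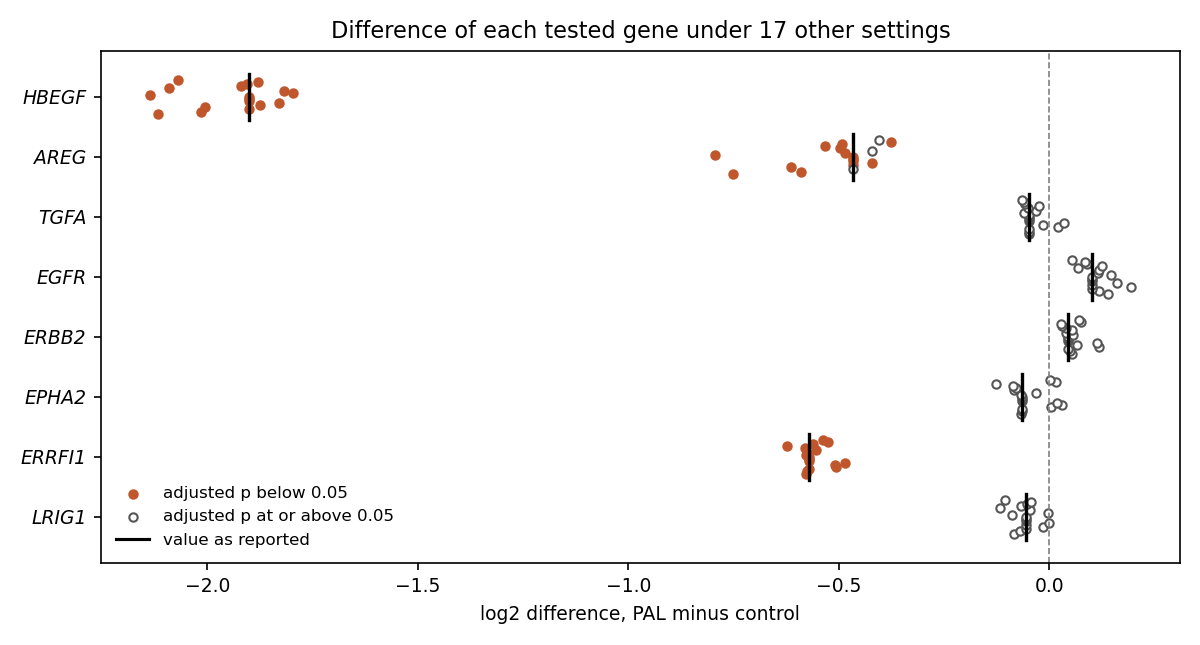
Log2 difference, PAL minus control, of each tested gene under 17 other settings (points; filled where the adjusted p is below 0.05), with the reported value as a black line. HBEGF (-2.14 to -1.80) and ERRFI1 (-0.62 to -0.49) are filled under every setting shown, AREG is open under 3, and TGFA and EPHA2 lie on both sides of 0.

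Profiles across the 6 libraries, as log2(FPKM + 1) minus the control mean, were compared with 6413 other protein-coding genes of at least 5 FPKM. The genes at the smallest Euclidean distance from HBEGF were RHOB, a small GTPase (distance 0.214), CYR61, a matricellular protein (0.231), and JUNB, an AP-1 subunit (0.253). RHOB was at 120 to 126 FPKM in control and 25.6, 27.0 and 38.7 in PAL replicates 1 to 3, so PAL replicate 3 was highest there too. The nearest to ERRFI1 were TSPYL1 (0.0603), METRNL (0.0814) and CDC25A, a cell cycle phosphatase (0.0890). CDC25A was at 41.6 to 46.5 FPKM in control and 28.7 to 30.3 in PAL. With 6 libraries in 2 groups, such a distance mostly reflects the size of the group difference.

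Beyond the 10 genes, 85 others of the pathway were listed and 67 tested. By limma 4 were higher and 13 lower in PAL, 25.4% called against the 25.9% of all tested genes, so their share was near the background. The median log2 difference was -0.03. Without both libraries numbered 3, 9 of the 67 were called, and 9 to 13 with any 1 library left out. These were 9 without PAL replicate 1, PAL replicate 2 or control replicate 1, and 10 without PAL replicate 3. Calls over all 12258 tested genes also fell, from 3179 to 2269 without both libraries numbered 3. With 1 library left out they were 1855 to 2789. The split depends on scaling. Of all calls, 44.0% were higher on the deposited scale, against 59.2% with quantile normalization, 69.7% as TPM and 73.3% with plain read totals. The median log2 difference over all tested genes moved too. It was 0.0043 on the deposited scale, 0.032 with quantile normalization, 0.072 as TPM and 0.075 with plain read totals.

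The other ligands were scarce. Of 6, only NRG2 was tested (1.64 ± 0.222 FPKM in control and 1.57 ± 0.0824 in PAL), with a log2 difference of -0.04 (adjusted p = 0.773) whose direction turned with some settings. EGF itself was at 0.515 ± 0.0891 and 0.303 ± 0.0338 FPKM, BTC at 0.191 to 0.328 over the 6 libraries, and EPGN, NRG3 and NRG4 at 0.0712 at most. Among the other receptors, ERBB3, which needs a partner for kinase activity, was the most abundant ERBB gene, at 19.6 ± 0.924 FPKM in control and 17.5 ± 0.310 in PAL. It fell by 0.16 (adjusted p = 0.0295), a call lost under 12 of 17 settings, with TPM at -0.09 (0.147) and without both libraries numbered 3 at -0.17 (0.0519). ERBB4 was at 0.0198 FPKM at most. The 4 ERBB receptors summed to 26.0 ± 0.757 FPKM in control and 24.2 ± 0.221 in PAL, but with plain read totals the groups overlapped (24.8 to 26.4 in control and 25.1 to 25.7 in PAL).

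For ligand shedding, 1 of 7 tested genes was higher and 2 lower, with a median of -0.06. That was 42.9% called, against 25.9% of all tested genes. ADAM17, the main sheddase of HBEGF, AREG and TGFA, went from 5.30 ± 0.152 to 4.46 ± 0.154 FPKM, a fall by 0.20 (adjusted p = 0.0184), and ADAM9 from 30.3 ± 0.267 to 27.7 ± 0.739 (a fall by 0.13, adjusted p = 0.0228). The ADAM17 call was lost under 6 of 17 settings and the ADAM9 call under 10, among them TPM and plain read totals for both, and 3 and 5 of the 6 fits with 1 library left out. RHBDF1, a rhomboid-like protein that carries ADAM17 to the surface, rose from 5.38 ± 0.0556 to 6.63 ± 0.0437 FPKM, by 0.26 (adjusted p = 0.00377), under all 17 settings.

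In the adaptors and the RAS-ERK core, 0 of 19 were higher and 3 lower, with a median of -0.03. At an unadjusted limma p below 0.05 the counts were 0 and 5, with no share over all tested genes given at that threshold. By voom they were 0 and 3, with 3896 of all 12258 genes called, 43.1% of them higher. By adjusted limma p the list had 15.8% called, against 25.9% of all tested genes. NRAS fell by 0.17 and the phosphatase gene PTPN11 by 0.14 on the log2 scale. As TPM or with plain read totals, 0 of the list were lower and 2 or 3 higher, so its direction depends on scaling. Of 14 other inhibitors of receptors and RAS, 2 were higher and 0 lower at an unadjusted limma p below 0.05, and by voom alike. As TPM, 5 were higher, with 3867 of all 12258 genes called, 69.7% of them higher. By adjusted limma p, 1 was higher and 0 lower, 7.14% called against 25.9% of all tested genes. The riser was SPRY2, a Sprouty inhibitor of RAS signalling, at 40.7 ± 3.50 FPKM in control and 50.4 ± 1.53 in PAL (0.30 on the log2 scale, adjusted p = 0.0133), in the opposite direction to ERRFI1.

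Endocytosis and ubiquitination genes had 3 of 12 lower and 0 higher. That was 25% called, near the 25.9% of all tested genes. By voom 5 were lower and 0 higher, with 3896 of all 12258 genes called. With plain read totals, 2 were higher. RAB11FIP1, an effector of recycling endosomes, went from 3.08 ± 0.524 to 1.59 ± 0.182 FPKM (a fall by 0.65, adjusted p = 0.00603) and RAB5A, of early endosomes, from 20.0 ± 0.878 to 16.5 ± 0.0392 (a fall by 0.26, adjusted p = 0.00369).

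The ephrins, ligands of EPHA2 and its relatives, had 3 of 5 tested lower and 1 higher, with a median of -0.36. That was 80% called on this short list, against 25.9% of all tested genes (14.5% lower and 11.4% higher). EFNA1, a main ligand of EPHA2, was at 7.94, 7.26 and 8.16 FPKM in control replicates 1 to 3 and at 4.39, 4.15 and 4.40 in PAL replicates 1 to 3. It fell by 0.72 ± 0.05 (SE; limma adjusted p = 1.90e-04), and the groups were well apart. EFNB1, a ligand of EPHB receptors, fell by 0.69 from 6.64 ± 0.816 to 3.72 ± 0.327 FPKM, and EFNA4 rose by 0.32 from 3.31 ± 0.516 to 4.34 ± 0.106. That rise was lost under 8 of 17 settings, voom included (adjusted p = 0.0702). Of 8 tested Eph receptors other than EPHA2, 1 was higher (EPHB1, by 0.23) and 1 lower (EPHB3, by 0.26). The share called was 25%, near the 25.9% of all tested genes. The EPHB1 and EPHB3 calls were lost under 9 and 10 of 17 settings. Each was lost in 5 of the 6 fits with 1 library left out and without both libraries numbered 3 (adjusted p = 0.163 and 0.105). EFNA1 and EFNB1 were called as lower under all 17 settings, while EPHA2 itself did not pass.

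**Figure D5:**
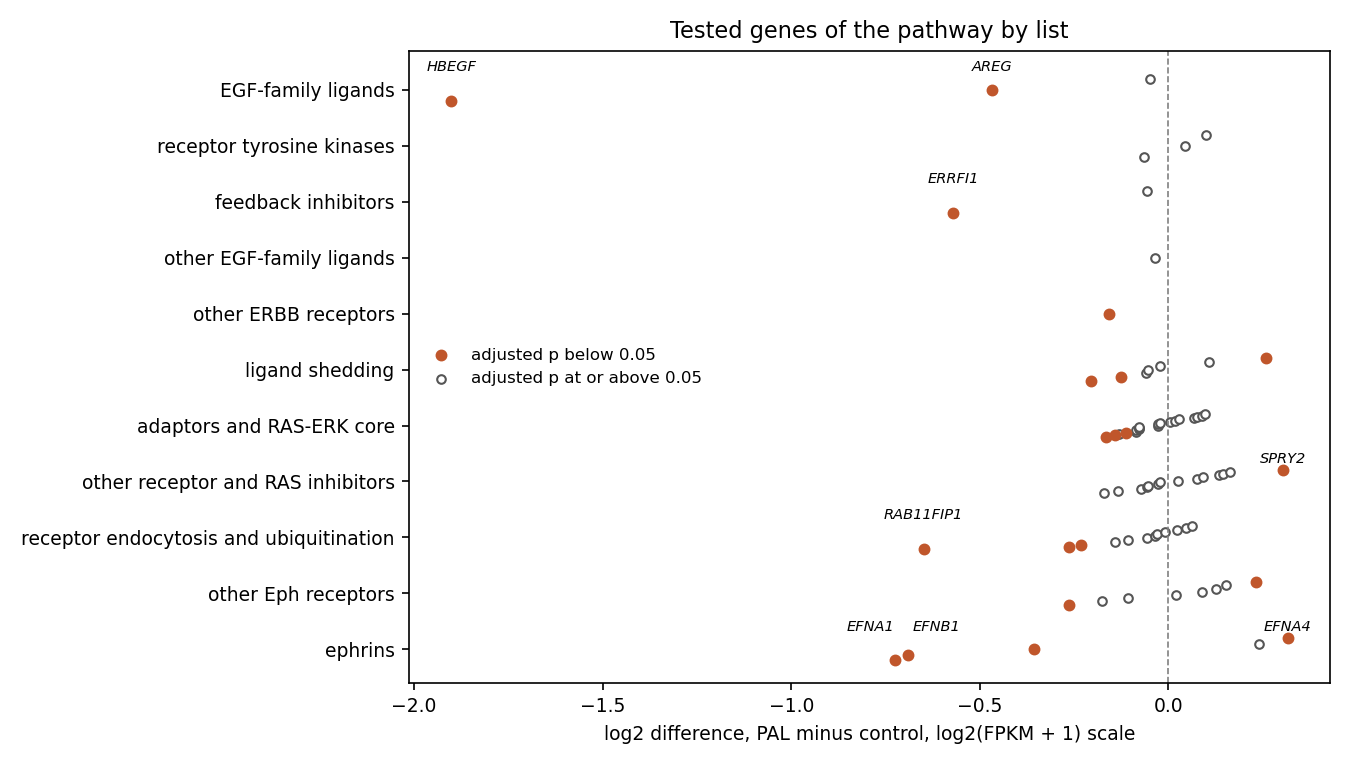
Log2 difference, PAL minus control, on the log2(FPKM + 1) scale (horizontal axis) of each tested gene by list, filled where the adjusted p is below 0.05. HBEGF (-1.90) lies far to the left of every other gene shown, and the lists of adaptors and inhibitors cluster around 0 (medians -0.03 and 0.0015).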

How the data were processed

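The authors deposited 1 table of FPKM values per gene and library. Of the processing, the submitters' processing notes name only the build, hg38. No aligner, counter or strand setting is stated in the sources used here. Per the file headers, positions and gene lengths stand beside the values, and those of the 10 members equal GENCODE release 29 (positions, and length as the union of exons).

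In each library, 100% of the values multiplied by gene length came out as whole reads (tolerance 0.01 of a read), and these reads were recovered. The library size behind the deposited FPKM was 0.980 to 0.984 of the read total in control and 1.04 to 1.05 in PAL. Up to a common factor it was 0.999 to 1.001 of the library's median-of-ratios size, which centres the typical gene's ratio between libraries. Intervals on reads cover counting error only, since PCR copies are not independent molecules.

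Genes with at least 1 FPKM in at least 3 libraries were tested with limma 3.58.1 in R 4.3.3 on log2(FPKM + 1), PAL minus control, with a variance trend, two-sided, with Benjamini-Hochberg adjustment over all tested genes. The members below that filter, EREG and NRG1, got an exact permutation test, and other genes below it were not tested. The deposited FPKM values are not counts, so a count model (voom on recovered reads) served only as an alternative. Within a group, libraries differed by more than counting error (1.97 to 3.99 chi-square units for each degree of freedom).

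The members, lists and named genes (per list up to 2 rises and 2 falls among the calls, or the most abundant gene; the 3 nearest profiles per role) were chosen with earlier results of these data known. Other genes (MIEN1, PGAP3, SLC25A26, HSPA6, FOS, EGF, BTC, EPGN, NRG3, NRG4 and ERBB4) were named after their values were seen.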

Additional observations from a re-analysis of the deposited data

How the results depend on the processing

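Alternatives covered the pseudocount (0.1, 0.5), the filter, 3 scalings, protein-coding genes, the variance model, a replicate block, voom and leaving out libraries, 17 in all. HBEGF and ERRFI1 were called as lower under all 17. With the replicate block, 3 members and 2131 genes were called, and 10 listed pathway genes. That block changed the call of no member. Same-numbered libraries did not deviate together (r from -0.0447 to 0.0273), so the numbers were not taken as pairs. With no filter, 2103 genes and 10 pathway genes were called and AREG kept its difference of -0.47 with an adjusted p = 0.0594, out of a range of 0.00330 to 0.0594. Without both libraries numbered 3, AREG was at -0.41 (adjusted p = 0.0530) and 9 pathway genes were called. With 1 library left out, calls ranged from 1855 to 2789 genes (against 3179; 1972 when PAL replicate 1 was dropped, 1855 for PAL replicate 2, 2051 for control replicate 2), 2 to 3 members and 9 to 13 pathway genes. AREG ranged from -0.53 to -0.38, and its call was lost without PAL replicate 2. TGFA turned to 0.022 as TPM and 0.035 with plain read totals. EPHA2 turned to 0.0045 as TPM, 0.031 after quantile normalization, 0.019 with plain read totals and 0.0017 without both libraries numbered 3, and ranged from -0.13 to 0.016 with 1 library left out. NRG2 turned to 0.011 as TPM, 0.016 with plain read totals and 0.0030 without control replicate 1, and ranged from -0.11 to 0.0030 with 1 library left out. Over all tested genes the median went from 0.0043 to 0.072 as TPM, 0.032 after quantile normalization and 0.075 with plain read totals. The cause of the turns was not tested. Depth limits AREG, NRG1 and EREG, at 0 to 69 reads per library.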

Other observations

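The genes around the members were read as values, a choice made after seeing the data. Within 250000 bases of HBEGF, 7 genes were tested, of which 0 were lower and 1 higher by limma. The higher one was SLC35A4, at 24.4 FPKM in control and 27.8 in PAL. Around ERRFI1, 3 genes were tested, with 0 called in either direction, PARK7 among them at 126 and 128 FPKM. MTHFD2L, the 1 tested neighbour of AREG, was at 1.07 and 1.27 FPKM and did not pass (adjusted p = 0.213). Around all 10 members, 36 genes that are no members were tested, with 4 lower and 4 higher, 22.2% called against 25.9% of all tested genes. The lower ones were MED1 and CDK12 near ERBB2, SPEN near EPHA2 and PCYOX1 near TGFA. The other higher ones were VOPP1 near EGFR and SZRD1 and ZBTB17 near EPHA2.

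In the other RefSeq windows, EGFR held AP-1 letters at 232 to 226 and at 136 to 130 bases before the second listed start, LRIG1 at 166 to 160 and 77 to 71 before the fourth listed start, and ERBB2 at 222 to 216. ETS letters stood at 25 to 20 and 14 to 9 bases in ERBB2 and at 208 to 203 before the second listed start of TGFA. TEAD letters stood at 175 to 170 bases in EREG and at 114 to 109 before the second listed start of EGFR. These genes did not pass or were not tested.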
